A study of Homo sapiens with 12 samples.

Results

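Polycomb repressive complex 1 (PRC1) was represented by 9 genes, taken by name from the expression tables of both cell lines: the catalytic subunits RING1 and RNF2, the PCGF subunits BMI1, PCGF1, PCGF3, PCGF5 and PCGF6, and the chromobox subunits CBX2 and CBX8. All 9 were listed and tested in each line, out of 34227 genes listed in at least 1 of the tables. SCC15 and SCC25 are human oral squamous cell carcinoma lines, used as models of head and neck squamous cell carcinoma, and both were labelled wild type. Each line was kept for 24 h either with annonaceous acetogenins (ACGs in the labels, given in the study's methods as squamocin at 10 µg/mL) or with its solvent DMSO, and 3 RNA-seq libraries were made per condition. The comparison asked how squamocin changed the transcriptome of each line. The labels do not say whether the 3 libraries came from separate cultures, so the p-values measure only the spread between these libraries, which may be technical.

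PRC1 is an E3 ubiquitin ligase that places a single ubiquitin on histone H2A and compacts chromatin at silenced genes. Every form of the complex contains RING1 or RNF2 (RING1A or RING1B) paired with 1 of the PCGF proteins, and the PCGF partner defines the form. Canonical PRC1 holds BMI1 (PCGF4) or PCGF2 with a CBX protein, whose chromodomain reads the H3K27me3 mark set by EZH2 in PRC2, whereas variant PRC1 holds RYBP or YAF2 and is recruited without that mark. PCGF1 belongs to the variant complex with KDM2B and BCOR, PCGF3 and PCGF5 to those with AUTS2 and casein kinase 2, and PCGF6 to the one with MGA, MAX and E2F6.

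The promoters of RING1 and PCGF1, which rose in both lines, and of RNF2 and BMI1, whose responses differed between the lines, are shown for reference. Each sequence is the 250 bases before a RefSeq transcription start (GRCh38.p14), read 5′ to 3′ on the strand of the gene. Capitals mark matches, on either strand, to the E-box CACGTG bound by MYC and MAX, to the cyclic AMP response element core TGACGT, or to the element TGATGCAA bound by ATF4 dimers. Windows were found for 7 of the 9 genes, CBX2 and CBX8 not among them. The motifs were picked after the expression values had been seen.
RING1, chr6:33208250-33208499, plus strand: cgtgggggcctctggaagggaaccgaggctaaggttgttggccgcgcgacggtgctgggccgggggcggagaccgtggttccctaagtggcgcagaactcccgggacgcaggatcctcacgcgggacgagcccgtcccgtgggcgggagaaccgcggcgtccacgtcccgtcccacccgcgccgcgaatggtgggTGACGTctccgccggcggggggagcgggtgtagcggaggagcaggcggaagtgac
PCGF1, chr2:74507696-74507945, minus strand: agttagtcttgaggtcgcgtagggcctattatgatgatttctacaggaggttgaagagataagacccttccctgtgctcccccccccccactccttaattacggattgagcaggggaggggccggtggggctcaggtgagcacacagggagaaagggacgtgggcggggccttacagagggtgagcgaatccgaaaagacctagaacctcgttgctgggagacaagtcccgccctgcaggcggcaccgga
RNF2, chr1:185045308-185045557, plus strand: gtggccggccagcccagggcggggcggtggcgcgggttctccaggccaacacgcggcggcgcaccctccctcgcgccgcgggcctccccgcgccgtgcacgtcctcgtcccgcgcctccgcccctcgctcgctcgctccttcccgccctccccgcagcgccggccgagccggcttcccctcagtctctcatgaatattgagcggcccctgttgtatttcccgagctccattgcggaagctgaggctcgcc
BMI1, chr10:22320849-22321098, plus strand: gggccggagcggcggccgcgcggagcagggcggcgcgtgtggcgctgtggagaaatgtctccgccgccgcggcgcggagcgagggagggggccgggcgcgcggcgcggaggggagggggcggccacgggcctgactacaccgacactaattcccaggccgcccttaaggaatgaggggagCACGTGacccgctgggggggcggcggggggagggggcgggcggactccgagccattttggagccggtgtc
The RING1 window held TGACGT, beginning 55 bases before the start, and the BMI1 window held CACGTG, beginning 70 bases before the start, while no match was present in the PCGF1 or RNF2 window. Among 35116 windows of the same length, 7.1% held TGACGT, 6.34% held CACGTG and 0.772% held TGATGCAA. The window of PCGF6 at chr10:103351141-103351390 held TGATGCAA, beginning 224 bases before the start, a further window of BMI1 at chr10:22321706-22321955 held no match, and neither did those of PCGF3 and PCGF5. The RING1, RNF2 and BMI1 sequences shown were rich in G and C (72.8%, 74.4% and 76.8%) with 34, 34 and 35 CpG dinucleotides. The PCGF1 sequence had 58.8% G and C and 12 CpG dinucleotides. Its window lay wholly inside the listed span of PCGF1 (chr2:74505043-74508580), downstream of the 5′ end. The RING1 and RNF2 windows overlapped the starts of their spans, and the BMI1 window shown lay before its span.

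The 12 libraries held between 16665563 and 22748845 reads assigned to genes. The deposited normalized counts summed to 15466464 to 15535484 in the SCC15 DMSO libraries and to 20467856 to 24626253 in the SCC15 squamocin libraries, and the corresponding totals were 18245022 to 18333723 and 20917114 to 21265099 in SCC25. Setting all library totals equal moved the median log2 fold change of all genes tested from 0.01 to -0.50 in SCC15 and from -0.01 to -0.23 in SCC25. Several members are therefore also given relative to that median, and which scaling holds for RNA per cell cannot be told apart here. In SCC15, squamocin replicate 3 stood apart from replicates 1 and 2, with a chi-square per degree of freedom of 64.1 and 56.8 over genes, against 1.67 to 9.95 for the other 10 pairs of replicates. On the deposited scaling, all 9 members had their highest SCC15 squamocin value in that library. It also had the largest total of normalized counts, 24626253 against 20467856 and 20826159. The share of all genes that were highest there was not counted, and neither was the order of these libraries with equal totals. Summed squamous epithelial markers (8 of 8 listed, among them KRT5, KRT14 and TP63) lay between 113048 and 119300 normalized counts in SCC15 libraries with DMSO and between 208829 and 362916 in those with squamocin, and in SCC25 between 27525 and 27814 and between 49389 and 51938. The 6 fibroblast markers, all listed, summed in SCC15 to 708 to 784 under DMSO and 482 to 486 under squamocin, and in SCC25 to 766 to 810 and 1073 to 1228. Leukocyte markers (3 of 5 listed in SCC15, 4 of 5 in SCC25) summed to 498 to 540 and 319 to 501 in SCC15, and to 331 to 420 and 19.1 to 31.1 in SCC25. Endothelial markers (2 of 4 and 4 of 4 listed) summed to 158 to 178 and 66.1 to 77.1, and to 233 to 296 and 19.8 to 37.7. LYZ, CDH5 and KDR were not listed in the SCC15 table, nor PTPRC in that of SCC25. The part of these marker levels in the results was not tested.

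Squamocin left most PRC1 genes of SCC15 without a called change and raised most of them in SCC25. In SCC15, 3 of the 9 genes rose (RING1, PCGF1 and PCGF5), none fell and 6 did not pass the test, where 30.9% of all genes tested rose and 30.0% fell. In SCC25, 6 rose (RING1, RNF2, BMI1, PCGF1, PCGF5 and PCGF6), CBX2 fell, and PCGF3 and CBX8 did not pass, against 38.3% and 38.5% of all genes. A gene was called at an adjusted p under 0.05 in limma on log2(normalized count + 1), and all fold changes are on that scale. The median log2 fold change of the 9 genes was 0.05 in SCC15 and 0.88 in SCC25. With equal library totals the counts became 2 higher (RING1 and PCGF1) and 5 lower (BMI1, PCGF3, PCGF6, CBX2 and CBX8) in SCC15, against 14.6% and 51.0% of all genes, and 6 higher and 2 lower (PCGF3 and CBX2) in SCC25, against 30.3% and 47.6%. Without squamocin replicate 3, SCC15 had 3 genes higher and 2 lower (BMI1 and CBX2), against 38.0% and 37.6%. Past an absolute log2 fold change of 1 there remained PCGF1 in SCC15, where 27.2% of all genes passed, and BMI1, PCGF1, PCGF5 and CBX2 in SCC25, where 30.9% passed. In bulk RNA, fewer cells that express a gene and less of its RNA per cell cannot be told apart.

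**Figure D1:**
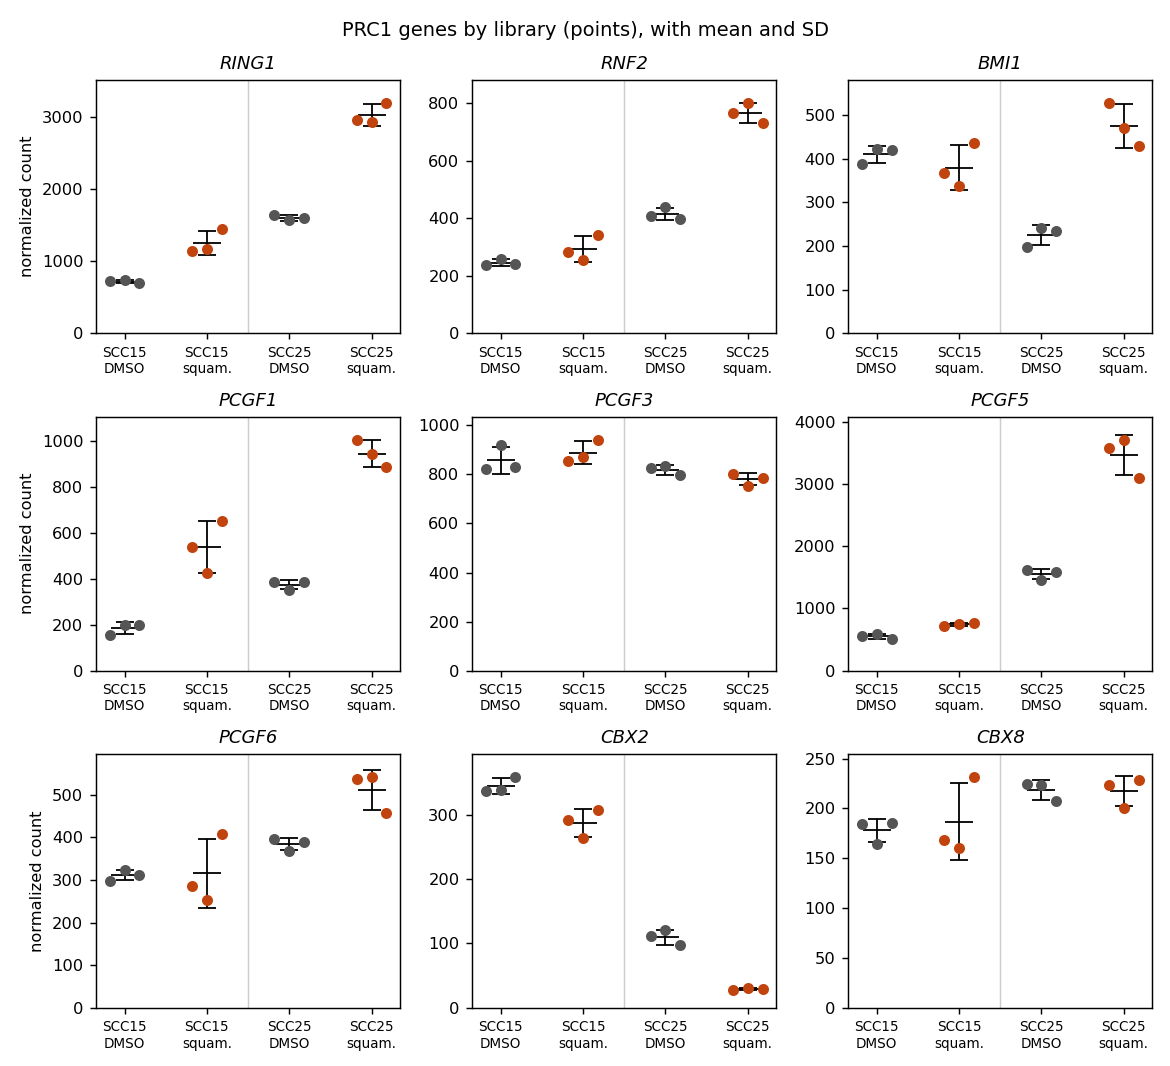
Normalized counts of the 9 PRC1 genes in each library, with DMSO in grey and squamocin in orange for SCC15 (left of each panel) and SCC25 (right), and bars for the mean and SD of 3 libraries. RING1 and PCGF1 sit above their DMSO libraries in both lines, BMI1 and RNF2 separate from DMSO in SCC25 alone, and CBX2 falls to about 29.3 in SCC25.

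RING1, a catalytic subunit that carries the RING domain of the ligase, rose in both lines. In SCC15 it read 723.4, 736.9 and 695.8 normalized counts with DMSO and 1145, 1172 and 1447 with squamocin. In SCC25 the values were 1640, 1568 and 1597 with DMSO and 2960, 2934 and 3200 with squamocin. The treatments did not overlap in either line, as was the case for 70.6% of all genes tested in SCC15 and 79.0% in SCC25. Its log2 fold change was 0.80 ± 0.11 (SE; adjusted p = 7.29e-04 by limma) in SCC15 and 0.92 ± 0.048 (adjusted p = 2.53e-09) in SCC25. Relative to the median of all genes these were 0.78 and 0.93, or 0.79 and 0.94 with equal totals. The difference between the lines was 0.12 (95% interval -0.14 to 0.39, adjusted p = 0.415), but reached 0.41 (adjusted p = 0.00163) with equal totals and 0.23 (adjusted p = 0.00885) without SCC15 squamocin replicate 3. RING1 (ENSG00000204227) spans chr6:33208495-33212722 on the plus strand.

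RNF2, the paralogous catalytic subunit, rose in SCC25 and was not called in SCC15. In SCC25 its normalized counts were 407.8, 438.1 and 396.6 with DMSO and 763.9, 800.7 and 731.6 with squamocin, with no overlap. In SCC15 they were 238.0, 258.5 and 240.9 against 284.0, 254.2 and 342.2, and squamocin replicate 2 lay within the DMSO range. The log2 fold change was 0.88 ± 0.068 (adjusted p = 9.91e-08) in SCC25 and 0.24 (95% interval -0.06 to 0.55, adjusted p = 0.143) in SCC15, where equal totals turned it to -0.25 (adjusted p = 0.0686). Relative to the median of all genes, the SCC15 value of RNF2 was 0.23, or 0.25 with equal totals. The response was larger in SCC25 by 0.64 ± 0.15 (adjusted p = 0.00294). Across all genes tested in both lines, 52.2% differed in response, and 4 of the 9 PRC1 genes did (RNF2, BMI1, PCGF5 and CBX2). With equal totals 6 did, RING1 and PCGF6 added, against 54.1% of all genes. RNF2 (ENSG00000121481) lies at chr1:185045364-185102608 on the plus strand, and the pseudogene FTH1P25 on the opposite strand within it read at most 3.42 normalized counts.

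The balance of the catalytic pair was read within each library, where the scaling cancels. In SCC15 the log2 ratio of RNF2 to RING1 was -1.60, -1.51 and -1.53 with DMSO and -2.01, -2.20 and -2.08 with squamocin. That is a ratio of 0.343 with DMSO and 0.234 with squamocin, a log2 difference of -0.55. The values did not overlap, which gives the smallest two-sided p that an exact permutation test of 3 against 3 allows (p = 0.1), so the design cannot reach 0.05. In SCC25 the ratio was 0.259 with DMSO and 0.253 with squamocin, a log2 difference of -0.03 (exact permutation p = 0.9) with overlapping values.

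Over the 12 libraries, and among 9698 protein-coding genes with a mean of at least 100 in both lines, the genes nearest to RING1 in log2 value relative to DMSO were SNAPC2 (root mean square difference 0.053), AUP1 (0.0574) and SCFD1 (0.0673). Their log2 fold changes were 0.78, 0.82 and 0.71 in SCC15 and 0.92, 1.00 and 0.88 in SCC25. For RNF2 the nearest were PAPOLA (0.0578), STXBP3 (0.0681) and CDV3 (0.0684), at 0.26, 0.31 and 0.26 in SCC15 and 0.88, 0.92 and 0.88 in SCC25. These genes were picked for closeness over the same 12 libraries, so their similar fold changes follow from the choice. Shared regulation was not tested.

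BMI1, the PCGF subunit of canonical PRC1 best known for repression of the INK4 locus, differed most between the lines among the genes that rose. In SCC25 it read 198.3, 242.0 and 234.6 normalized counts with DMSO and 527.5, 469.0 and 428.5 with squamocin. In SCC15 it read 387.3, 422.2 and 419.9 against 366.3, 336.3 and 435.5, and the treatments overlapped because replicate 3 was above every DMSO library. The log2 fold change was 1.08 ± 0.10 (adjusted p = 8.07e-07) in SCC25 and -0.12 (95% interval -0.40 to 0.16, adjusted p = 0.415) in SCC15. The SCC15 value became -0.22 (adjusted p = 0.0199) without squamocin replicate 3 and -0.62 (adjusted p = 0.00115) with equal totals, which is -0.12 relative to the median of all genes. The difference of 1.19 ± 0.17 between the lines passed the test (adjusted p = 7.36e-05). BMI1 (ENSG00000168283) spans chr10:22321211-22331484 on the plus strand and shares 22.8% of its 4395 annotated exon bases (GENCODE v44) with the readthrough gene COMMD3-BMI1. How reads in shared exons were assigned is not given in the sources used here, so the level of BMI1 is uncertain to that extent. COMMD3-BMI1 itself read at most 0.873 in SCC15 and was not listed in SCC25.

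PCGF2 (MEL18), the closest paralog of BMI1 and its alternative in canonical PRC1, was measured beside it. PCGF2 rose by 0.45 ± 0.093 in SCC15 (adjusted p = 0.00449) and by 0.19 ± 0.056 in SCC25 (adjusted p = 0.00766), but stood at -0.05 and -0.02 with equal totals. The ratio of BMI1 to PCGF2 in SCC15 was 0.713 under DMSO and 0.481 under squamocin, and in SCC25 it was 0.282 and 0.52, log2 differences of -0.57 and 0.88. Its values were thus lower with squamocin in SCC15 and higher in SCC25, without overlap between treatments in either line (exact permutation p = 0.1 in each, the smallest possible).

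PCGF1, the PCGF subunit of the KDM2B-BCOR complex, showed the largest increase of the 9 genes in both lines. In SCC15 its normalized counts were 156.1, 200.0 and 199.9 with DMSO and 537.9, 426.3 and 650.7 with squamocin. In SCC25 they were 386.8, 350.8 and 385.1 with DMSO and 1004, 944.2 and 884.8 with squamocin. Every squamocin library lay above every DMSO library of its line. The log2 fold change was 1.52 ± 0.18 (adjusted p = 3.6e-04) in SCC15, above 94.5% of all genes tested, and 1.33 ± 0.071 (adjusted p = 3e-09) in SCC25, above 91.4%. With equal totals it was 1.03 and 1.12. The lines did not differ by the test (-0.19, 95% interval -0.62 to 0.25, adjusted p = 0.455), an interval that spans sizeable differences in both directions. PCGF1 (ENSG00000115289) spans chr2:74505043-74508580 on the minus strand.

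PCGF5 and PCGF3 occupy the same place in variant PRC1 but were measured apart. PCGF5 read 552.8, 589.0 and 508.9 normalized counts with DMSO and 712.9, 750.0 and 761.5 with squamocin in SCC15. In SCC25 it read 1622, 1459 and 1583 against 3574, 3705 and 3100. The treatments did not overlap in either line, and the SCC25 increase was the larger. Its log2 fold change was 1.15 ± 0.066 (adjusted p = 6.22e-09) in SCC25 and 0.43 ± 0.092 (adjusted p = 0.0051) in SCC15, where it turned to -0.07 (adjusted p = 0.589) with equal totals while staying 0.42 to 0.43 above the median of all genes. The difference of 0.72 ± 0.12 between the lines passed the test (adjusted p = 2.58e-04). PCGF5 (ENSG00000180628) lies at chr10:91163012-91284331 and PCGF3 (ENSG00000185619) at chr4:705748-770640, both on the plus strand.

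PCGF3 was not called in either line. Its means were 857.4 ± 54.0 (SD, n = 3) in DMSO-treated and 888.2 ± 46.25 in squamocin-treated SCC15 cells, and 819.7 ± 20.3 and 780.2 ± 23.9 in SCC25 cells. The log2 fold change was 0.05 (95% interval -0.16 to 0.26, adjusted p = 0.637) and -0.07 (95% interval -0.19 to 0.05, adjusted p = 0.261). With equal totals both passed, at -0.45 (adjusted p = 0.00365) and -0.28 (adjusted p = 5.82e-04), yet these lay within 0.05 of the median of all genes. Within libraries the ratio of PCGF5 to PCGF3 in SCC15 was 0.642 under DMSO and 0.835 under squamocin, and in SCC25 it was 1.89 and 4.42, with no overlap in either line (exact permutation p = 0.1 in each). The antisense gene AC139887.2, inside the PCGF3 span, read in SCC15 58.0 to 67.2 under DMSO and 34.8 to 66.1 under squamocin, and in SCC25 38.7 to 47.8 and 10.2 to 18.9. Whether the counting used strand is not given in the sources used here, so reads of PCGF3 and its antisense genes cannot be told apart.

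PCGF6, of the MGA-MAX-E2F6 complex, rose modestly in SCC25. There it read 397.3, 367.9 and 388.6 normalized counts with DMSO and 536.4, 541.8 and 456.3 with squamocin, with no overlap and a log2 fold change of 0.41 ± 0.082 (adjusted p = 6.01e-04). In SCC15 it read 298.6, 322.6 and 311.6 against 286.3, 253.1 and 408.1, so that replicate 3 lay above and the other squamocin libraries below every DMSO library. The SCC15 value was -0.01 (95% interval -0.42 to 0.40, adjusted p = 0.975). The difference between the lines was 0.41 (95% interval -0.03 to 0.86, adjusted p = 0.107), and passed without SCC15 squamocin replicate 3 (0.61, adjusted p = 3.23e-04) and with equal totals (0.70, adjusted p = 0.00227). PCGF6 (ENSG00000156374) spans chr10:103302796-103351144 on the minus strand, and RNU11-3P within it read at most 1.71.

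CBX2, a chromodomain subunit of canonical PRC1 that compacts nucleosomes, was the only member called lower in the main test with all libraries. In SCC25 it read 112.0, 120.5 and 97.37 normalized counts with DMSO and 27.96, 31.20 and 28.87 with squamocin, which rests on 22 to 30 reads per treated library. The log2 fold change was -1.87 ± 0.17 (adjusted p = 6.33e-07), below all but 6.1% of the genes tested. In SCC15 the values were 337.0, 339.2 and 358.8 with DMSO and 292.1, 264.5 and 307.3 with squamocin, all below the DMSO libraries. The SCC15 change of -0.26 (95% interval -0.50 to -0.02) missed the threshold (adjusted p = 0.0556 by limma), and passed it without squamocin replicate 3 (-0.31, adjusted p = 0.00363), with equal totals (-0.76, adjusted p = 5.75e-04), with edgeR (-0.33, adjusted p = 0.0169) and with DESeq2 (-0.28, adjusted p = 0.0434). CBX2 was lower by 1.60 more in SCC25 than in SCC15 (difference -1.60 ± 0.17, adjusted p = 6.94e-06). CBX2 (ENSG00000173894) spans chr17:79778132-79787983 on the plus strand.

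CBX8, which lies beside CBX2 on chromosome 17 and also reads H3K27me3, was not called in either line (ENSG00000141570, chr17:79792132-79801683, minus strand, with the antisense gene AC100791.2 at no more than 2.32). Its means were 177.9 ± 11.7 (SD, n = 3) in SCC15 cells under DMSO, 186.7 ± 38.9 after squamocin, and 218.4 ± 9.76 and 217.7 ± 14.9 in SCC25 cells. The log2 fold changes of 0.05 (95% interval -0.33 to 0.43, adjusted p = 0.798) and -0.01 (95% interval -0.22 to 0.20, adjusted p = 0.96) bound any change more tightly in SCC25, and with equal totals the SCC15 value turned to -0.44 (adjusted p = 0.0164), 0.05 above the median of all genes. The ratio of CBX8 to CBX2 in SCC15 was 0.517 under DMSO and 0.642 under squamocin, and in SCC25 it was 1.98 and 7.2, without overlap in either line (exact permutation p = 0.1 in each).

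**Figure D2:**
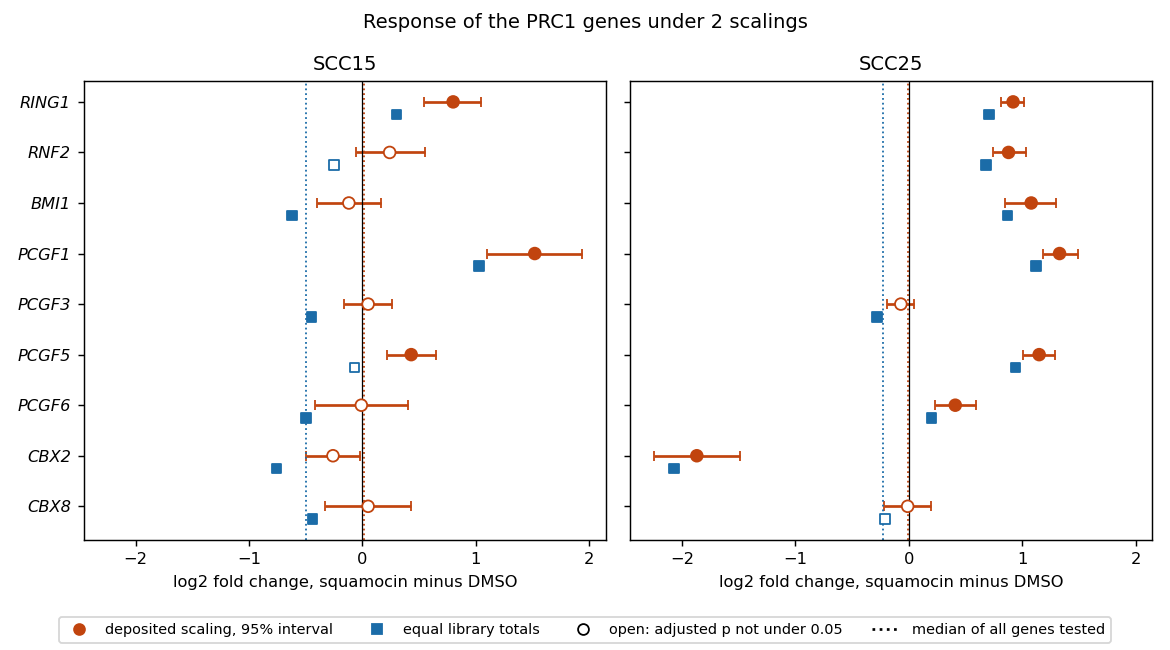
Log2 fold change of each PRC1 gene, squamocin minus DMSO, for the deposited scaling (circles, with 95% intervals) and for equal library totals (squares), with open symbols where the adjusted p was not under 0.05. Dotted lines give the median of all genes tested under each scaling (0.01 and -0.50 in SCC15, -0.01 and -0.23 in SCC25), and the members keep nearly the same distance from it.

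**Figure D3:**
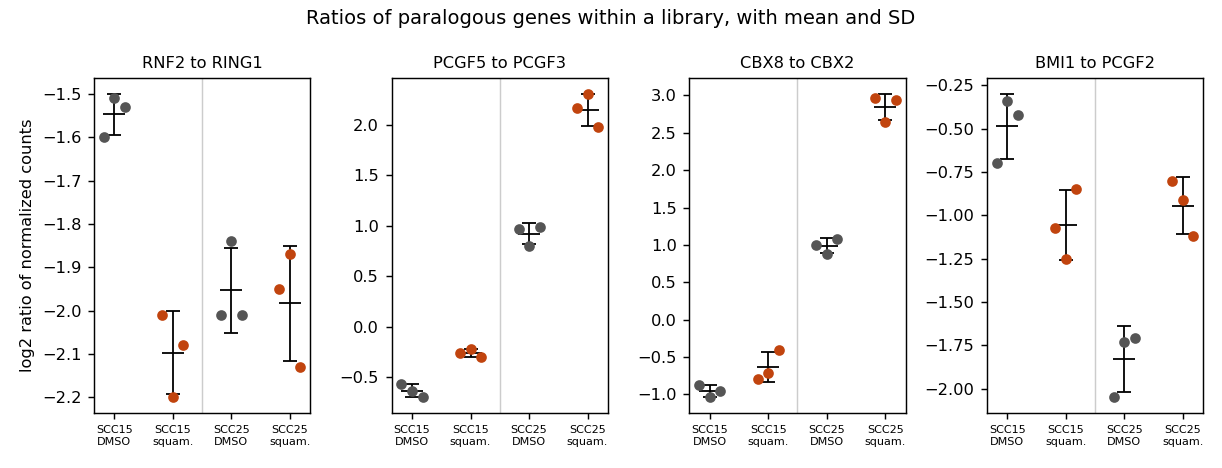
Log2 ratio of normalized counts for 4 pairs of related genes within each library, with the mean and SD of 3 libraries per condition (grey DMSO, orange squamocin). With squamocin the RNF2 to RING1 ratio is lower in SCC15 (by -0.55) and overlaps DMSO in SCC25, BMI1 to PCGF2 is lower in SCC15 and higher in SCC25, and PCGF5 to PCGF3 and CBX8 to CBX2 are higher in both.

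Per kilobase of annotated exon, RING1 was the most abundant member in all 4 conditions. With DMSO it reached 396 normalized counts per kb in SCC15 and 883 in SCC25, and no other member overlapped it. In SCC15 with DMSO the order continued with PCGF3 (125), PCGF1 (106), PCGF6 (103), BMI1 (93.2), PCGF5 (66.2), RNF2 (62.9), CBX2 (60.8) and CBX8 (43.1), where PCGF1 and PCGF6, PCGF5 and RNF2, and RNF2 and CBX2 overlapped as neighbours. In SCC25 with DMSO it was PCGF1 (215), PCGF5 (187), PCGF6 (128), PCGF3 (119), RNF2 (106), CBX8 (52.9), BMI1 (51.2) and CBX2 (19.4), and only CBX8 and BMI1 overlapped. Squamocin moved PCGF1 to the next place after RING1 in SCC15 (309 per kb, against 692 for RING1), the place it already held in SCC25, where it reached 542 against 1672. CBX2 ended at 5.17 per kb in treated SCC25 cells, the lowest of the 9. The tables were scaled separately for each line, so levels are not compared between lines.

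Of the 9 other canonical subunits, 3 rose (PHC2 and PCGF2 among them) and 2 fell (CBX6 and CBX7) in SCC15, 4 rose (PHC1, PCGF2 and PHC3 among them) and 3 fell (CBX6, CBX7 and PHC2) of the 8 tested in SCC25. CBX6 and CBX7, alternative chromobox readers, fell in both lines, with log2 fold changes of -0.91 ± 0.098 and -1.09 ± 0.042 for CBX6 and of -0.37 ± 0.11 and -1.09 ± 0.064 for CBX7. CBX7 went from 253.5 ± 11.9 (SD, n = 3) to 196.1 ± 12.1 normalized counts in SCC15 and from 900.0 ± 28.3 to 422.5 ± 20.1 in SCC25. The Polyhomeotic protein PHC2 was higher in SCC15 (0.71 ± 0.11, adjusted p = 0.00145) and lower in SCC25 (-0.33 ± 0.046, adjusted p = 2.79e-05). PHC1 rose in SCC25 (0.64 ± 0.078) and read 612.2 ± 217 against 493.1 ± 33.3 in SCC15, where it was not called. Of all genes tested, 30.9% rose and 30.0% fell in SCC15, with 38.3% and 38.5% in SCC25. The list median was 0.14 in both lines, with 0.01 and -0.01 for all genes. With equal totals the counts were 0 higher and 4 lower in SCC15, where PHC2 (0.22) and PCGF2 (-0.05) were no longer called, and 2 higher and 3 lower in SCC25, where PHC3 (-0.07) and PCGF2 (-0.02) lost the call. Of all genes, 14.6% were higher and 51.0% lower in SCC15 under that scaling, and 30.3% and 47.6% in SCC25.

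Among the 23 partners of variant PRC1, 9 rose and 9 fell in SCC15, and 11 rose and 5 fell of the 22 tested in SCC25, with medians of -0.09 and 0.10. The shares over all genes were 30.9% and 30.0% in SCC15 and 38.3% and 38.5% in SCC25. YAF2, which together with its paralog RYBP takes the place of the CBX protein, rose in both lines (0.99 ± 0.091 and 1.65 ± 0.081). RYBP itself went from 438.2 ± 8.61 to 1153 ± 113 normalized counts in SCC25 (1.39 ± 0.073, adjusted p = 2.87e-09) and rose by 0.55 ± 0.11 in SCC15 (adjusted p = 0.00332), where it stood at 0.05 and was not called with equal totals. MAX rose in both lines (1.19 ± 0.075 and 1.17 ± 0.047), as did CSNK2B, the regulatory subunit of casein kinase 2 (1.12 ± 0.25 and 1.37 ± 0.077), and SKP1 (0.66 ± 0.24 and 1.37 ± 0.056). The partners that fell in both lines included BCOR (-0.92 ± 0.18 and -0.39 ± 0.067), its paralog BCORL1 (-1.64 ± 0.21 and -1.09 ± 0.10), MGA, the scaffold of the PCGF6 complex (-1.17 ± 0.17 and -0.76 ± 0.089), and L3MBTL2 of the same complex (-0.46 ± 0.094 and -0.42 ± 0.12). PCGF1 and BCOR, which share a complex, went opposite ways in both lines. E2F6, also a partner of PCGF6, fell in SCC15 (-1.26 ± 0.14) and was at -0.13 (adjusted p = 0.153) in SCC25. Equal totals gave a split of 3 up and 13 down for SCC15, SKP1 no longer called, and of 9 up and 11 down for SCC25, against 14.6% and 51.0%, and 30.3% and 47.6%, of all genes.

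**Figure D4:**
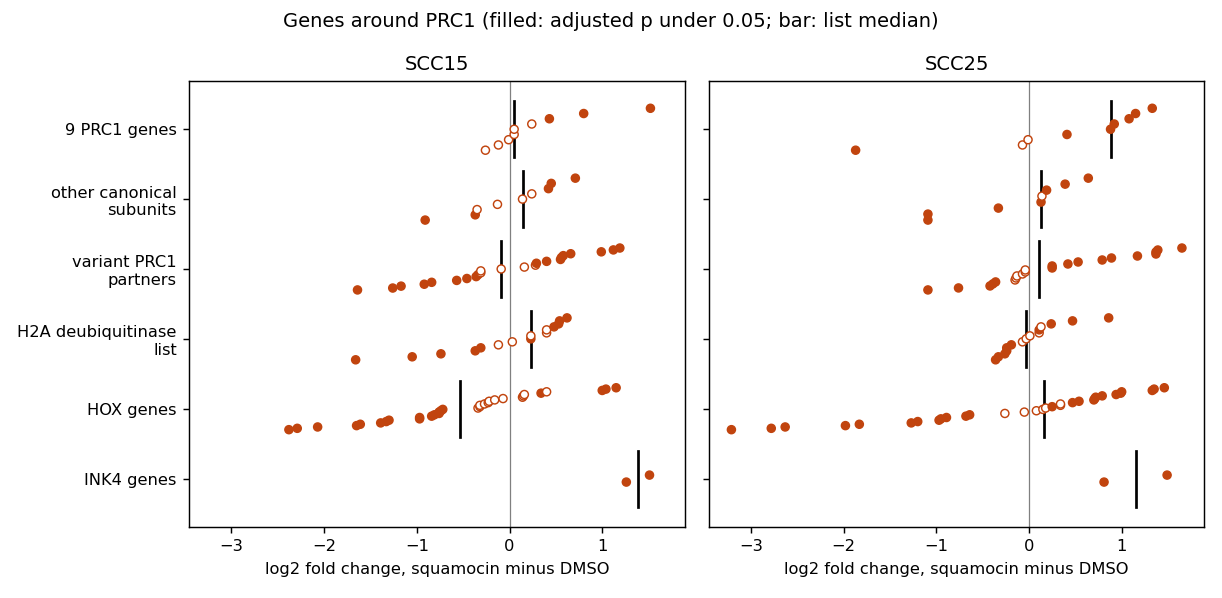
Log2 fold change, squamocin minus DMSO, of each tested gene in 6 lists (1 point per gene, filled where the adjusted p was under 0.05), with a black bar at the list median. The 9 PRC1 genes sit around 0.05 in SCC15 and 0.88 in SCC25, HOX genes spread to both sides, and both INK4 genes lie to the right.

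The list for removal of ubiquitin from H2A, the histone that PRC1 marks, holds cofactors such as ASXL1 beside the enzymes. Whether each enzyme on it removes the ubiquitin placed by PRC1 was not tested. In SCC15 its genes were called in shares close to those of all genes. Of 15 tested, 5 rose and 5 fell in SCC15 and 4 rose and 6 fell in SCC25, with medians of 0.23 and -0.03, where 30.9% and 30.0% of all genes did so in SCC15 and 38.3% and 38.5% in SCC25. USP16, an H2A deubiquitinase, rose in both (0.53 ± 0.089 and 0.86 ± 0.083), as did USP3 (0.62 ± 0.096 and 0.24 ± 0.065) and FOXK2 (0.48 ± 0.076 and 0.11 ± 0.046), although with equal totals only USP16 in SCC25 (0.65) among these 6 values was called and FOXK2 turned to -0.02 and -0.10. USP21 rose in SCC15 (0.54 ± 0.093, and 0.04 with equal totals) and was at 0.11 (adjusted p = 0.0917) in SCC25, while ASXL1, an activator of BAP1, rose in SCC25 (0.47 ± 0.057) and was at 0.03 (adjusted p = 0.903) in SCC15. ASXL2, its paralog, fell in SCC15 from 1016 ± 36.7 to 324.3 ± 57.5 normalized counts (-1.66 ± 0.14, adjusted p = 8.91e-05) and was at -0.07 (adjusted p = 0.453) in SCC25. BRCC3 (-1.05 ± 0.11 and -0.36 ± 0.079), USP22 (-0.74 ± 0.15 and -0.24 ± 0.042), MBD5 (-0.37 ± 0.087 and -0.19 ± 0.082) and FOXK1 (-0.31 ± 0.09 and -0.33 ± 0.037) fell in both lines. OGT (-0.26 ± 0.058) and HCFC1 (-0.24 ± 0.054) fell in SCC25, and were at 0.40 (adjusted p = 0.126) and -0.12 (adjusted p = 0.675) in SCC15. Under equal totals 0 were up and 5 down in SCC15, with 2 up and 9 down in SCC25, beside 14.6% and 51.0%, and 30.3% and 47.6%, of all genes.

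The HOX genes, textbook targets of Polycomb silencing, included 32 tested genes in each line. In SCC15, 4 rose and 16 fell (median -0.53), and in SCC25, 13 rose and 12 fell (median 0.17), where 30.9% and 30.0% of all genes did so in SCC15 and 38.3% and 38.5% in SCC25. With equal totals 3 were up and 24 down in SCC15 (14.6% and 51.0% of all genes), and 10 up and 13 down in SCC25 (30.3% and 47.6%). HOXB9 rose in both lines, from 180.0 ± 10.6 to 399.8 ± 15.1 normalized counts in SCC15 and from 190.3 ± 7.46 to 489.4 ± 72.4 in SCC25. HOXC9 also rose in both (0.34 ± 0.13 and 1.33 ± 0.14), but its SCC15 value was -0.15 with equal totals. HOXB2 rose in both (1.00 ± 0.17 and 0.99 ± 0.40), without a call in SCC25 under equal totals (adjusted p = 0.0807). Its SCC25 means were low, at 6.644 normalized counts under DMSO and 14.44 under squamocin. HOXA9 rose in SCC15 (1.04 ± 0.14) and fell in SCC25 (-0.64 ± 0.24, adjusted p = 0.0276). HOXC8 did the reverse, falling in SCC15 (-0.97 ± 0.14, adjusted p = 8.55e-04) and rising in SCC25 (1.46 ± 0.35). HOXD8 rose in SCC25 (1.00 ± 0.13) and was at -0.32 (adjusted p = 0.25) in SCC15. HOXA6 and HOXA7 fell in both lines, HOXA7 from 81.55 ± 16.0 to 18.73 ± 4.63 in SCC15 and from 88.64 ± 5.99 to 13.68 ± 3.14 in SCC25. The largest falls were those of HOXC12 (-2.38 ± 0.15) in SCC15 and of HOXA6 (-3.21 ± 0.31), HOXB3 (-2.78 ± 0.23) and HOXA7 (-2.63 ± 0.23) in SCC25. HOXB3 was at -0.16 (adjusted p = 0.229) in SCC15. HOXC12 was not tested in SCC25, with means of 0.5901 under DMSO and 0.6933 under squamocin. HOXB13 (-1.65 ± 0.19 and -0.89 ± 0.16) and HOXA13 (-0.84 ± 0.18 and -1.98 ± 0.47) fell in both lines. Squamocin means were low for HOXA6 (6.213 in SCC15 and 6.372 in SCC25) and for HOXA13 in SCC25 (5.826).

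Both genes of the INK4 locus, the best known target of BMI1, rose in both lines. CDKN2A, which encodes the CDK inhibitor p16 and ARF, went from 6521 ± 232 to 19173 ± 5996 normalized counts in SCC15 (1.51 ± 0.20, adjusted p = 6.3e-04) and from 2723 ± 138 to 4786 ± 137 in SCC25 (0.81 ± 0.047, adjusted p = 6e-09). CDKN2B, encoding p15, went from 810.6 ± 24.8 to 1946 ± 13.6 (1.26 ± 0.075, adjusted p = 2.51e-05) and from 628.3 ± 16.5 to 1766 ± 45.2 (1.49 ± 0.052, adjusted p = 6.78e-11). Both stayed called with equal totals, at 1.01 and 0.61 for CDKN2A and 0.77 and 1.28 for CDKN2B. They rose in SCC15, where BMI1 was not called in the main test, and in SCC25, where BMI1 rose. BMI1 in SCC15 was called lower without squamocin replicate 3 (-0.22) and with equal totals (-0.62). A link between BMI1 and these genes was not tested.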

How the data were processed

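RNA-seq was read in 12 libraries, 3 per treatment in each cell line. Per the labels and the study's methods, the authors aligned reads to GRCh38 with HISAT2 2.0.5 and counted them per gene with featureCounts 1.5.0-p3. The deposited signal values are those counts divided by 1 size factor per library, scaled within each line (DESeq2 1.16.1), although SCC25 headers name them FPKM. Whole reads were recovered for 100% of values (within 0.01 read). Columns of the authors' comparisons (fold changes, p-values) were not used. Samples were grouped by labelled line and treatment. Genes with a mean of at least 10 were tested with limma 3.58.1 (R 4.3.3) on log2(value + 1) with a trended prior, two-sided, Benjamini-Hochberg adjusted over all genes tested, threshold 0.05. The difference between lines was a contrast of the 4 group means over 14454 genes tested in both. Intervals are 95%. On the recovered reads, edgeR 4.0.16 called 4712 genes higher and 5168 lower in SCC15, and 6298 and 6506 in SCC25. DESeq2 1.42.0, TMM factors, equal library totals, pseudocounts of 0.1 and 10, other filters, a replicate block and leaving out each library were the alternatives. Scripts were tested on simulated data. Members and gene lists were chosen with earlier results of these data known. Named genes were all members, up to 4 higher and 4 lower per list and line by size of change, overlapping genes, and the 3 nearest to RING1 and RNF2. For genes named in 1 line, values of the other line were added after they were seen. The values of some genes in the lists are not reported here.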

Additional observations from a re-analysis of the deposited data

Results flagged for a closer look

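The response to squamocin differed between the cell lines for 4 of the 9 PRC1 genes, by the limma contrast of the 4 group means over all 12 libraries. Squamocin raised RNF2 more in SCC25 than in SCC15, by a log2 difference of 0.64 ± 0.15 (SE; 95% interval 0.32 to 0.96). BMI1 gave the largest positive difference, 1.19 ± 0.17 (95% interval 0.83 to 1.56), and PCGF5 one of 0.72 ± 0.12 (95% interval 0.46 to 0.98). CBX2 was the only one that went the other way, at -1.60 ± 0.17 (95% interval -1.97 to -1.24). All 4 differences passed the test with equal library totals too, at 0.93, 1.48, 1.01 and -1.31. A difference of response was called for 52.2% of all genes, so that 4 of 9 is near the share of the whole transcriptome. SCC15 squamocin replicate 3, which stood apart from the others, enters each of these contrasts, and the 4 calls were also made without it. On the deposited scaling, where its total was the largest, it held the highest SCC15 squamocin value of every member.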

How the results depend on the processing

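The count of PRC1 genes called in SCC15 was 3 in the main test, 7 with equal library totals and 1 past an absolute log2 fold change of 1, and ran from 3 to 5 when 1 library was left out, the 5 being without squamocin replicate 3. In SCC25 it was 7, and 4 past the fold limit, and the count that differed between lines was 4, and 2 past that limit. The share of all genes with a difference past that limit was not counted. With equal totals in SCC15, PCGF3 turned to -0.45, PCGF5 to -0.07 and CBX8 to -0.44. The call count of the other PRC1 subunits and partners in SCC15 was 23 and ran from 15 (without DMSO replicate 3) to 28 (without squamocin replicate 3) when 1 library was left out. The CBX8 to CBX2 log2 ratio difference in SCC25 was 1.86, and 1.60 with a pseudocount of 10, which weighs on the low CBX2 counts. Replicate numbers did not pair the libraries: same-numbered deviations from the group means correlated at -0.0511 to 0.0078, and the replicate block left the counts at 3, 7 and 4. The other 127 comparisons of counts and ratios stayed within 1.5 times the main count or 1 SD of the main ratio. Counts were compared as higher and lower together, and the split by direction could still move. With equal totals the other PRC1 subunits and partners went from 12 higher and 11 lower to 3 and 17 in SCC15. In SCC25 they went from 15 and 8 to 11 and 14. Over all genes tested, the shares higher and lower went from 30.9% and 30.0% to 14.6% and 51.0% in SCC15. The SCC25 shares went from 38.3% and 38.5% to 30.3% and 47.6%. Depth limits CBX2 in treated SCC25, at 22 to 30 reads, and intervals cover only the spread of 3 libraries. Which scaling reflects RNA per cell was not tested.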
